A study of Rattus norvegicus with 74 samples.

Results

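The genes described here are the vomeronasal receptor genes of the rat, taken as every gene whose symbol begins with Vom1r or Vom2r. They number 145 of the 30560 genes in the deposited count tables, 77 of them Vom1r and 68 Vom2r, and all 145 carry the protein-coding biotype. They carry 135 distinct symbols, since 10 symbols belong to 2 Ensembl identifiers each, and such a gene is named here with its identifier. They are known for expression in a sensory organ of the nose rather than in muscle, so their counts were compared between skeletal muscle, mitochondria isolated from it and heart, as a gauge of counts that do not stem from transcription of these genes in muscle cells. What the counts do stem from was not tested.

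The series covers 30 male wild-type Wistar Kyoto rats aged 9 weeks, all given drinking water with 8% deuterium oxide. Trained rats (ExT) ran on a motorised treadmill for 4 weeks from the age of 5 weeks, on 5 days a week, for up to 60 min at up to 20 m/min, and sedentary rats (Sed) were placed on a treadmill that stood still. Tissue was taken 24 h after training ended. Each rat gave a library of whole gastrocnemius muscle (SM) and one of mitochondria from that muscle (MT), captured with an antibody and treated with RNase-A and proteinase-K, and 14 of the rats also gave one of the left ventricle wall (LV). The 4 groups SM_Sed, SM_ExT, MT_Sed and MT_ExT thus have 15 libraries each, and the LV arms, LV_Sed and LV_ExT, have 7 each. RNA of all 3 sample types was digested with DNase-I on the column. For SM (50 ng) and MT (10 ng) a Zymo library kit was used and for LV (100 ng) an Illumina kit, so sample type, RNA input and, for LV, kit cannot be told apart.

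Vomeronasal receptors are G protein-coupled receptors on sensory neurons of the vomeronasal organ, a chemosensory organ at the base of the nasal septum that detects pheromones and other cues from animals. Type 1 receptors (Vom1r) sit on apical neurons that use the G protein subunit Gnai2 and respond mainly to small molecules. Type 2 receptors (Vom2r) have a large extracellular domain, sit on basal neurons that use Gnao1, and are known for responses to peptides and proteins. Both pathways open the cation channel Trpc2. The genes lie in clusters of similar copies, and neither family has a known role in muscle contraction or in mitochondria.

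Reads that fit 2 copies equally can be left out or assigned to either. The likeness of copies is shown here for the stretch before the gene's start, the sequence at hand. The windows shown belong to the member with no counts at all, to the member with the most MT counts, and to one of the lowest members beside a close relative with many counts. Each is the 250 bases before the gene's start in RefSeq (build GRCr8, not the build of the count tables), matched by symbol. Lower case marks bases inside a run of 25 bases also found in the other window of the pair, and capitals mark bases outside every such run.
Vom1r35 (chr1:77596756-77597005, minus strand): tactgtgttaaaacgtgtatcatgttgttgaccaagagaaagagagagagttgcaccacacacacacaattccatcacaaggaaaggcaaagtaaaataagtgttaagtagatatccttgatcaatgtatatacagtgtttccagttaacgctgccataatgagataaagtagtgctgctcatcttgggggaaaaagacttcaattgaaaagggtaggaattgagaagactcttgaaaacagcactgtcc
Vom2r3 (chr1:2759374-2759623, plus strand): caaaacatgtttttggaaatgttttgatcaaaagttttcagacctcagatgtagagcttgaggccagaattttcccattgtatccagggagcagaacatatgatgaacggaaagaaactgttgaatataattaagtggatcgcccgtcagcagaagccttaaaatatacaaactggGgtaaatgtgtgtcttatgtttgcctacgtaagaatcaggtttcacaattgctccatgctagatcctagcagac
LOC134484849 (chr1:2595307-2595556, plus strand): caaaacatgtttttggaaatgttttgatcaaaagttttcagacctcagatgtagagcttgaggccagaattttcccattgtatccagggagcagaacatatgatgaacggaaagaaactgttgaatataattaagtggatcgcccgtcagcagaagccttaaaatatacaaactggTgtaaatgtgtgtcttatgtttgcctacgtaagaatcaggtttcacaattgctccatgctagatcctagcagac
Vom1r17 (chr1:69442922-69443171, plus strand): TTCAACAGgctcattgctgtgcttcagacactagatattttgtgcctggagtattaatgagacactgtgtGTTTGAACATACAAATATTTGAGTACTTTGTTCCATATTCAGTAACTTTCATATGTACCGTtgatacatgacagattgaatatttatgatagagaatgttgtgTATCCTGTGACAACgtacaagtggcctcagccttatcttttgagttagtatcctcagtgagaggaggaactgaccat
Vom1r16 (chr1:69335716-69335965, minus strand): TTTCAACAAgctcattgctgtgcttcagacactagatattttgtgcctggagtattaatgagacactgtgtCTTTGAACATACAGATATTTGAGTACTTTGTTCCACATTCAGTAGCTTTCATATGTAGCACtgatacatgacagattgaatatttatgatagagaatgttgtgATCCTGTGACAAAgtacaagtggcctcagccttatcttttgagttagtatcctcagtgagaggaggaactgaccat
The window of LOC120093107 (chr1:77605241-77605490, minus strand), the next gene after Vom1r35, has the same 250 letters as that of Vom1r35. In Vom2r3, 249 of the 250 bases lie inside 25-base runs shared with LOC134484849. In Vom1r17, 167 of the 250 bases lie inside runs shared with Vom1r16, and a stretch in capitals can still hold equal bases in shorter runs.

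Of the 145 members, 110 had a symbol of their own and 1 RefSeq window, and these were compared in full (300 bases) with all 33469 windows of the table, on both strands. In 40 members no 25-base run occurred in any other window, and their median MT total over the 30 libraries was 360 counts. In 18 members at least 50% of the runs occurred elsewhere, with a median MT total of 495 counts. Over all 110 members, the Spearman correlation of MT total with the share of runs found elsewhere was 0.118. These windows lie mostly before the gene's start, outside the sequence that is counted, so they describe the likeness of the copies there and not of the reads counted. Vom1r35 and Vom2r3, at 0 and at 2431 MT counts, were the 2 members in which every run was found elsewhere. How the authors treated reads that fit several genes is not given in the sources used here, so counts of single members with near copies are uncertain.

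Libraries held 13281629 to 26002757 nuclear-encoded counts in SM, 430162 to 1055433 in MT and 29736117 to 42079400 in LV, and values below are counts, or counts scaled to 1000000 nuclear-encoded counts of the library (CPM). Mitochondrial-genome genes took 12.9% to 95.4% of all counts in MT, 22.1% to 35.9% in SM and 39.9% to 50.7% in LV. The 8 skeletal muscle markers fixed for this work summed to 133175 to 182135 CPM in SM and 662 to 3104 CPM in MT. The 6 left ventricle markers summed to 47193 to 59384 CPM in LV. A count of 3 was taken as the smallest that can be told from 0 in a library, or 2.84 to 6.97 CPM for MT libraries, 0.115 to 0.226 for SM libraries and 0.0713 to 0.101 for LV libraries. Intervals and floors cover counting error only.

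The receptor genes were almost without counts in muscle and ventricle and were counted throughout the mitochondrial libraries. Summed over the 145 genes, an SM_Sed library held 4 to 17 counts (median 9) and an SM_ExT library 3 to 24 (median 12). LV_Sed libraries held 32 to 56 (median 42) and LV_ExT libraries 17 to 63 (median 44). MT_Sed libraries held 1407 to 3284 (median 2413) and MT_ExT libraries 1249 to 2665 (median 2279), although an MT library was the shallowest of the 3 types. No MT library came near any SM or LV library.

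Scaled to nuclear-encoded counts, the sum was 0.535 ± 0.256 CPM (SD, n = 15) in SM_Sed and 0.609 ± 0.299 (n = 15) in SM_ExT. In MT it was 2950 ± 337 CPM (n = 15) in Sed and 3102 ± 184 (n = 15) in ExT. In LV it was 1.19 ± 0.265 CPM (n = 7) in Sed and 1.19 ± 0.473 (n = 7) in ExT. The mean over all libraries of a type was thus 5290 times higher in MT than in SM and 2.07 times higher in LV than in SM. Without Vom2r44, the member with the most counts in both tissues, the sum was 0.359 CPM in SM and 0.532 CPM in LV. Taken over all counts instead, mitochondrial-genome genes included, the MT mean was 1498 CPM. Bulk libraries cannot tell fewer cells of a type from less RNA per cell, and an MT library holds RNA of a fraction and not of cells.

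**Figure D1:**
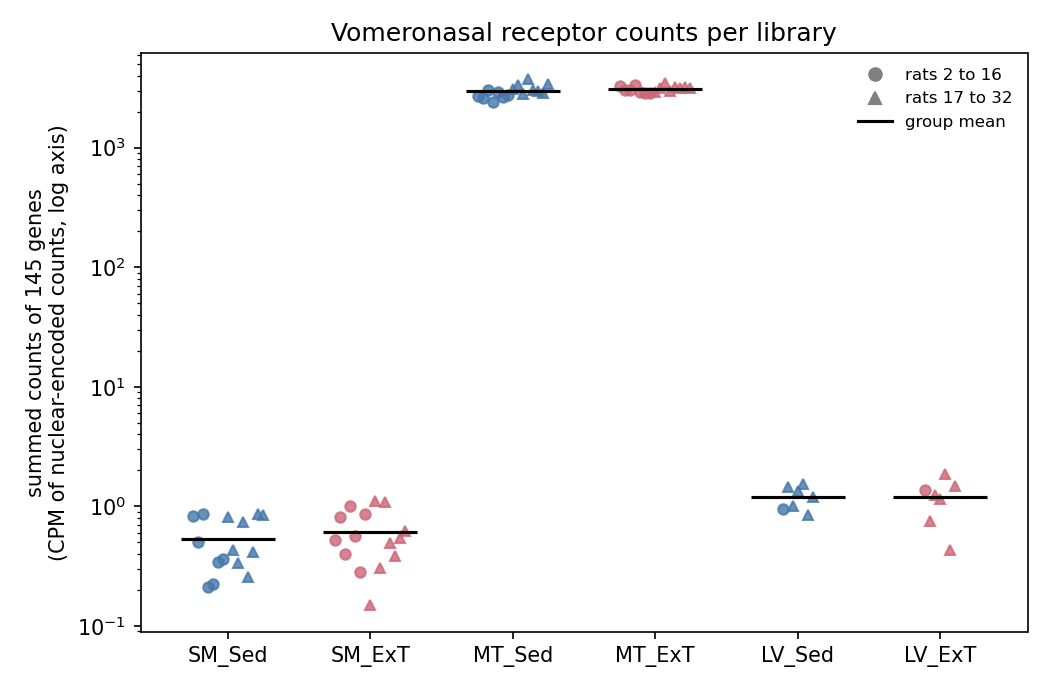
Summed counts of the 145 vomeronasal receptor genes in each library, as CPM of nuclear-encoded counts on a log axis, by group. Each point is a library, circles are rats 2 to 16, triangles are rats 17 to 32 and black lines are group means. All MT libraries lie between 2404 and 3724 CPM, and all SM and LV libraries lie below 2.

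The sum varied little between MT libraries. It ran from 2404 CPM in rat 11 to 3724 CPM in rat 24, both MT_Sed, a 1.55-fold range with a coefficient of variation of 9.19% over 30 libraries. Counting alone would give a coefficient of 1.75% to 2.83% for a single MT library, so the libraries differed by more than counting error. In SM, where a library held at most 24 member counts, counting alone gives 20.4% to 57.7%. The MT library with the highest mitochondrial-genome share, rat 2 (MT_ExT, 95.4% of counts), had a sum of 3247 CPM. The one with the lowest share, rat 23 (MT_Sed, 12.9%), had 2817 CPM.

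Type 1 receptor genes held 44.0% ± 1.6 (SD, n = 30) of the members' counts in MT, within 41.5% to 47.7% in every library. In SM the type 1 share was 23.7% ± 19.1 (n = 30), running from 0% to 75%, and in LV it was 3.74% ± 4.63 (n = 14). By level, type 1 genes summed to 1333 ± 145 CPM in MT, 0.127 ± 0.109 in SM and 0.0509 ± 0.0733 in LV, and type 2 genes to 1693 ± 149, 0.445 ± 0.251 and 1.14 ± 0.335. The few counts in SM and LV were therefore mostly of type 2 genes, and many of them were of 1 gene, Vom2r44. Without it, type 1 genes held 73 of the other 206 counts in SM and 26 of 273 in LV. Both families were counted in each sample type: 37 type 1 and 42 type 2 members had counts in SM, and 11 and 15 in LV. Gene lengths were not used here, so these sums do not compare levels between genes.

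Nearly every member was counted in MT. Of the 145 genes, 135 to 141 had at least 1 count in an MT library, against 1 to 14 in an SM library and 5 to 9 in an LV library. Over all libraries of a type, 144 members had counts in MT, 79 in SM and 26 in LV. In MT 124 members had counts in all 30 libraries, in LV 2 had counts in all 14, and in SM none had counts in all 30. There were 60 members without a single count in the 44 SM and LV libraries, and 59 of these had MT counts, 18798 together.

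The MT totals of single members spanned a narrow middle range. Over the 30 MT libraries a member had a median of 372 counts, and 5% of members lay below 85.2 and 5% above 1094.2. The median was 291 counts for type 1 genes and 442 for type 2 genes, on a scale that does not allow for gene length. The SM totals of the same members had a median of 1 count and the LV totals a median of 0. In MT, 876 of 30523 nuclear-encoded genes (2.87%) had a larger total than the highest member. The same held for 14842 (48.6%) in SM and 13584 (44.5%) in LV. Above the members' 95th percentile lay 6098 of these genes (20.0%) in MT, 19953 (65.4%) in SM and 18002 (59.0%) in LV. These too are counts and not per length.

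**Figure D2:**
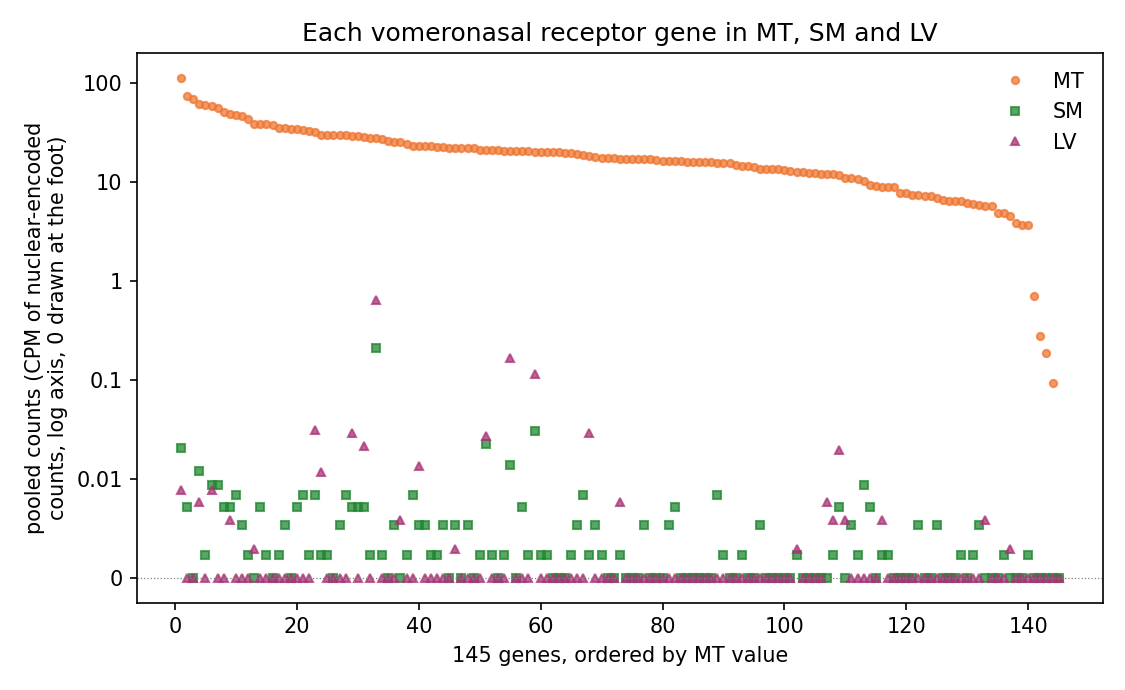
Pooled counts of each of the 145 genes in MT, SM and LV (CPM on a log axis), ordered from the highest to the lowest MT value, with genes at 0 drawn at the foot. The MT values form a slowly falling line with 5 genes at its end that had 15 counts or fewer, one of them at 0, while SM and LV values lie at or near 0 with a few type 2 genes above the rest.

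Among type 1 genes, Vom1r19 (ENSRNOG00000063416) had the most MT counts. It had 27 to 77 counts (median 46) in MT_Sed and 22 to 60 (median 45) in MT_ExT, a level of 62.6 ± 11.8 CPM and 61.0 ± 10.5 CPM (SD, n = 15 each). In SM it had 7 counts, 1 in each of 7 libraries, and in LV 3 counts in 1 library. The next type 1 gene, Vom1r24 (ENSRNOG00000063294), had 28 to 71 counts (median 41) in MT_Sed and 17 to 67 (median 41) in MT_ExT. Its SM total was 1 count and its LV total 0. The arms overlapped for both genes.

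Among type 2 genes, Vom2r3 (ENSRNOG00000070568), the member with the most MT counts, had 39 to 128 (median 87) in MT_Sed and 52 to 109 (median 78) in MT_ExT, which is 111 ± 21.8 and 116 ± 16.9 CPM (SD, n = 15 each). Its SM total was 12 counts in 9 libraries, none above 4, and its LV total 4. Vom2r13 (ENSRNOG00000057050) followed with 31 to 98 counts (median 53) in MT_Sed and 32 to 79 (median 51) in MT_ExT. Both genes were counted in every MT library with overlapping arms. Vom2r63 (ENSRNOG00000067686) had 24 to 73 counts (median 48) in MT_Sed and 27 to 72 (median 51) in MT_ExT and none in any SM or LV library. Against a floor of 3 counts over the 30 SM libraries pooled, its MT level was at least 13649-fold higher. Vom2r35 (ENSRNOG00000050831) had 24 to 62 counts (median 42) in MT_Sed and 30 to 58 (median 41) in MT_ExT.

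At the other end, 5 members had almost no MT counts, and they were singled out after their values were seen. Vom1r35 (ENSRNOG00000033755), whose window equals that of its neighbour, had 0 counts in all 74 libraries. Over 30 MT libraries Vom2r69 had 2 counts, Vom2r71 had 4, Vom1r5 had 6 and Vom1r17 had 15. Their SM and LV totals were 0. Vom1r16, the close relative of Vom1r17, had 1055 MT counts, 19 to 57 per MT_Sed library (median 35) and 13 to 60 per MT_ExT library (median 32). Vom1r5 shared no 25-base run with any other window.

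The spread of single members between MT libraries was described by a dispersion index, which is near 1 for pure counting error. It is the chi-square of a gene's 30 counts against the libraries' nuclear-encoded totals, divided by its degrees of freedom. Among the 136 members with at least 100 MT counts the median index was 1.49, with 5% below 0.952 and 5% above 2.40. The 998 odorant receptor genes with at least 100 MT counts had a median of 1.41 and the 24358 such nuclear-encoded genes 1.54. The median for the members thus lay between these 2. So did their median MT total, at 390.5 counts against 216 for odorant and 648 for nuclear-encoded genes. The sets were not matched for depth, so the indices do not compare them at equal counts. The members that varied most were Vom2r40 (index 3.46), Vom1r24 (3.17), Vom1r77 (2.94) and Vom2r26 ENSRNOG00000015707 (2.91). Vom2r40 ran from 25.9 to 91.7 CPM (median 43.8) in MT_Sed and from 33.3 to 76.6 CPM (median 47.6) in MT_ExT, so its arms overlapped too. Vom1r77 ran from 3.72 to 20.8 CPM in MT_Sed and from 4.88 to 48.2 CPM in MT_ExT, and Vom2r26 ENSRNOG00000015707 from 10.3 to 48.1 and from 10.9 to 42.9 CPM.

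In whole muscle the few member counts gathered on 1 gene. Vom2r44 (ENSRNOG00000030104) held 124 of the 330 member counts of the 30 SM libraries (37.6%) and was the only member there with 100 or more. It had 0 to 12 counts (median 3) in SM_Sed and 0 to 11 (median 3) in SM_ExT, and was counted in 26 of 30 libraries. The next were Vom2r25 ENSRNOG00000047616 with 18 counts, Vom2r25 ENSRNOG00000046431 with 13, Vom2r3 with 12, Vom2r66 with 8 and Vom1r19 with 7. Of these, Vom2r25 ENSRNOG00000047616 had at most 4 counts in a library, and Vom2r66 at most 1. Only 16 members had more than 3 SM counts in all, and 66 had none.

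The ventricle showed the same gene at the top. Vom2r44 held 331 of 604 member counts (54.8%) and was counted in all 14 LV libraries. In LV_Sed its 7 libraries had 22, 40, 24, 26, 27, 6 and 20 counts for rats 16, 19, 20, 29, 30, 31 and 32. In LV_ExT rats 14, 17, 18, 25, 26, 27 and 28 had 24, 9, 22, 22, 40, 8 and 41. The arms covered the same range, with the lowest values in rats 31, 27 and 17. Vom2r66 (ENSRNOG00000067972), also counted in all 14, had 1 to 11 counts (median 8) in LV_Sed and 2 to 7 (median 6) in LV_ExT, 86 in all. Vom2r25 ENSRNOG00000047616 had 0 to 10 (median 4) and 0 to 11 (median 4), 60 in all. Vom2r4 (16 counts), Vom2r80 ENSRNOG00000069466 (15) and Vom2r38 (15) followed, each counted in 5 or 6 libraries, and 119 members had no LV count.

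**Figure D3:**
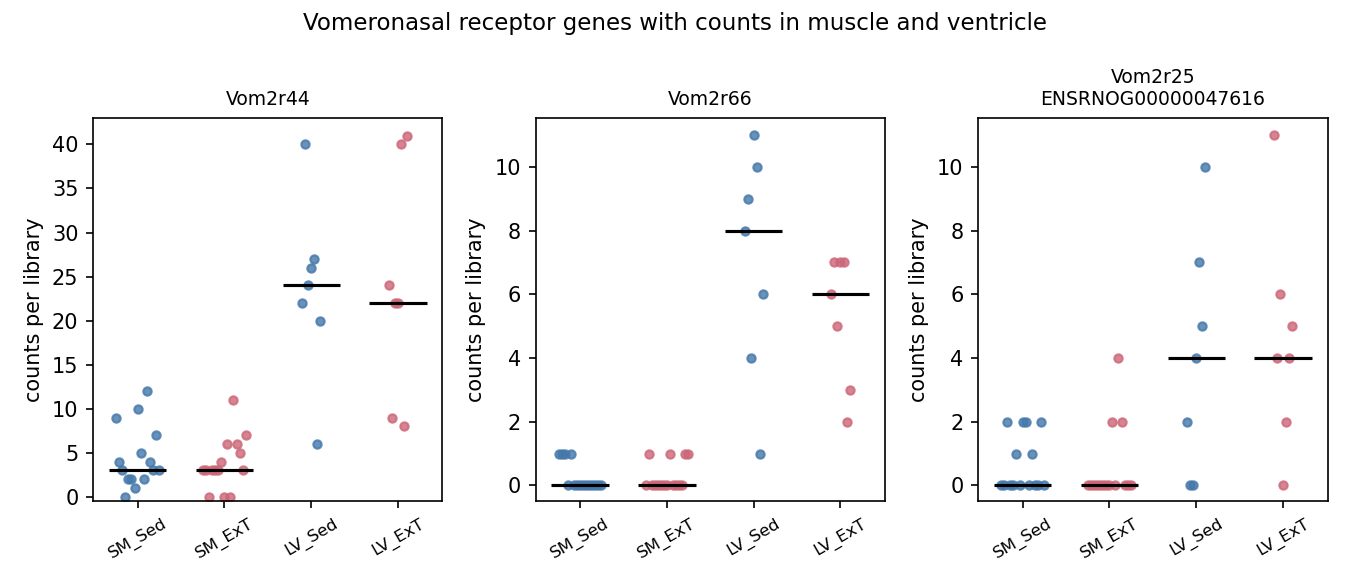
Counts per library of the 3 members with the most LV counts, in the SM and LV groups. Points are libraries and black lines are group medians. Vom2r44 lies between 6 and 41 counts in every LV library and between 0 and 12 in SM, and Vom2r66 is at 0 or 1 in SM.

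There were 7 members with more than 3 counts in both SM and LV, all of them type 2: Vom2r25 ENSRNOG00000046431, Vom2r25 ENSRNOG00000047616, Vom2r3, Vom2r35, Vom2r4, Vom2r44 and Vom2r66. Among members with more than 3 SM counts, the excess of MT over SM was smallest for Vom2r44. Its MT level was 27.7 ± 6.90 CPM (SD, n = 30) and its SM level 0.213 ± 0.157 (n = 30). The ratio of pooled levels was 132 (95% interval from counting error, 108 to 161), against 665 (416 to 1132) for Vom2r25 ENSRNOG00000047616, 943 (546 to 1786) for Vom2r25 ENSRNOG00000046431 and 1516 (763 to 3534) for Vom2r66. Over the 16 members with more than 3 SM counts the ratio ran from 132 to 7007, with a median of 3893. For 64 members with no SM count and more than 3 MT counts the ratio was at least 36.4 to at least 13649, by member. The other members had 1 to 3 SM counts, or too few counts in both, and no bound is given for them.

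In the RefSeq order of genes Vom2r44 lies between Gmps, which encodes guanosine monophosphate synthetase, and Vom2r45. Gmps was counted at 50.1 CPM in SM, 89.6 in LV and 62.8 in MT (means). Vom2r45 had no SM count and was at 0.002 CPM in LV, but at 39.4 ± 10.6 CPM (SD, n = 30) in MT. Vom2r66 lies between the pseudogene Vom2r-ps123 and the protein-coding Zfp950l7. Vom2r25, a symbol of 2 members, lies between the pseudogenes EI24-ps1 and Vom2r-ps39. Whether reads of a neighbour were counted on Vom2r44, Vom2r66 or Vom2r25 was not tested. Whether the counting used strand is not given in the sources used here.

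The other chemosensory receptor families were also highest in MT, while the order of SM and LV differed between families. The 1115 odorant receptor genes, which encode the receptors of the main olfactory epithelium, summed to 13898 ± 1109 CPM in MT (SD, n = 30), 11.5 ± 1.54 in SM (n = 30) and 19.4 ± 2.62 in LV (n = 14). The 15 trace amine receptor genes summed to 170 CPM in MT, 0.05 in SM and 0.00579 in LV. The 33 taste receptor genes summed to 294, 13.4 and 5.18 CPM, so their MT mean was 22 times that of SM, against 5290 times for vomeronasal and 1210 times for odorant receptor genes.

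Vomeronasal and odorant counts kept a nearly fixed ratio in MT. Members' counts were 0.218 ± 0.009 times the odorant counts (SD, n = 30), with 0.204 to 0.236 over the MT libraries, a coefficient of variation of 4.07%. In SM the ratio was 0.0498 ± 0.0232 (n = 30) and in LV 0.0615 ± 0.0186 (n = 14). Every SM and LV library thus had fewer vomeronasal counts per odorant count than any MT library.

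**Figure D4:**
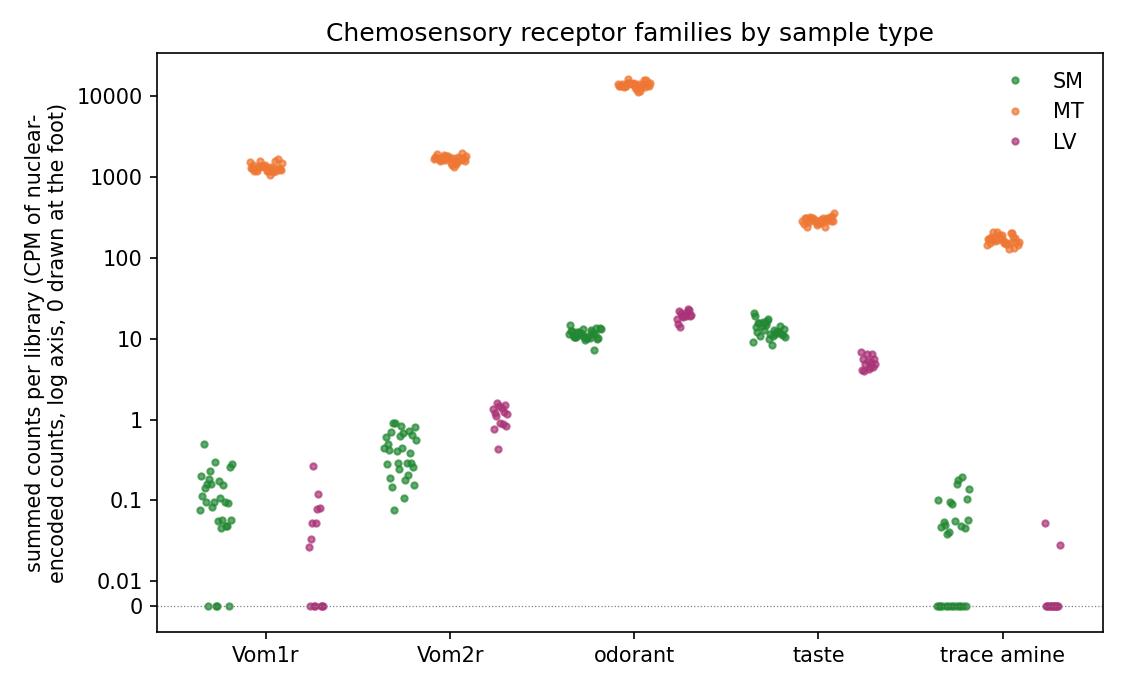
Summed counts per library of type 1 and type 2 vomeronasal, odorant, taste and trace amine receptor genes, in CPM on a log axis with 0 drawn at the foot. Each point is a library. MT libraries lie above all SM and LV libraries in each of the 5 families, and the gap is smallest for taste receptors.

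The signalling genes of the same neurons did not move as one group. Of 17 transduction genes fixed for this work, 16 were in the tables, and 14 of them had a higher mean CPM in MT than in SM. The share over all genes was not taken on this measure. In the fit across all genes given below, with library totals alone, 17616 of 22842 genes were called higher in MT in Sed. Trpc2, the channel of vomeronasal neurons, was at 89.3 ± 14.8 CPM in MT (SD, n = 30), 1.45 in SM and 1.31 in LV. Omp, the marker of mature olfactory and vomeronasal neurons, was at 68.6 ± 13.5, 0.489 and 1.77 CPM. Gnao1, the G protein subunit of type 2 neurons, was at 70.8 ± 14.3, 11.5 and 12.0 CPM, and Gnai2, that of type 1 neurons, was lower in MT, at 55.1 ± 19.4 CPM against 157 in SM and 136 in LV. Cnga2, the cyclic nucleotide-gated channel of odorant transduction, was at 19.1 ± 5.53 CPM in MT and at 0.018 and 0.015 in SM and LV, with no count in some libraries of either. Rtp1, a chaperone of odorant receptors, was at 9.65 ± 4.70, 0.002 and 0.010 CPM.

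As a list, the 6 sensory neuron markers found of 7 fixed (Omp, Trpc2, Gng8, Cnga2, Stoml3 and Gnal) summed to 197 to 366 CPM in MT, 2.90 to 6.51 in SM and 2.49 to 5.67 in LV. They were higher in MT than in both tissues, as the receptor counts were. Between SM and LV their ranges overlapped, while the mean receptor sum was 2.07 times higher in LV. The part of these markers in the receptor counts was not tested. Other marker lists were also higher in MT than in SM: the 2 leukocyte markers were at 138 CPM in MT, 12.7 in SM and 38.8 in LV, and the 2 adipocyte markers at 59.2, 2.67 and 2.05 CPM. Endothelial markers were lower in MT (211 CPM) than in SM (396) and LV (640).

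The difference between MT and SM was fitted across all genes with edgeR's quasi-likelihood test, in each arm. In Sed rats 123 members passed the filter on low counts and all 123 were higher in MT at an adjusted p under 0.05, where 61.7% of the 22842 genes tested were called higher in MT. In ExT rats the same held for 117 of 117 members, against 59.3% of 21312 genes. Since members pass the filter through MT alone, these counts are a description and not support. The fitted log2 difference had a median of 8.41 over the members in Sed (1.81 over all genes tested) and 8.59 in ExT (1.31 over all genes). These fitted values depend on the scaling and on the prior count for genes at 0: with library totals alone in place of TMM scaling, the median over all genes was 3.43 in Sed and 2.92 in ExT and that over the members 9.88 and 10.1. With TMM scaling 14086 of the 21648 called genes were higher in Sed and 12631 of 20092 in ExT, and with library totals 17616 of 20427 and 15734 of 18192.

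Of the 16 transduction genes tested in Sed, 13 were called higher and 3 lower in MT, and in ExT 12 of 15 higher and 3 lower. Over all genes tested, 61.7% were called higher in MT in Sed and 59.3% in ExT. Trpc2 was higher by 3.80 on the log2 scale in Sed (edgeR adjusted p = 7.4e-31) and by 3.89 in ExT (8.7e-33), and Omp by 4.93 and 5.06. The 3 lower genes were Gnai2, Gnb1, a G protein beta subunit, and Adcy2, an adenylate cyclase. Adcy2 fell by 1.74 in Sed with TMM scaling, while its mean CPM of nuclear-encoded counts was higher in MT (64.5 against 49.3 CPM), so its direction depends on the scaling.

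No difference between trained and sedentary rats was called for any member in MT. The test of ExT against Sed covered the 99 members that passed the filter, of which 0 had an edgeR adjusted p under 0.05, and 0% of the 19281 genes tested were called. At an unadjusted p under 0.05 there were 6 of the 99 members, all higher in ExT. Among all 19281 genes there were 912 (4.73%), of which 487 were higher. With library totals alone in place of TMM scaling, 0 members and 1 gene had such a p. DESeq2 called none, and had 7 of 144 members and 1267 of 30049 genes at an unadjusted p under 0.05. The fitted log2 difference was positive for 67 of 99 members with a median of 0.08, whereas over all genes 50.7% were positive and the median was 0.00. The 38 type 1 genes and the 61 type 2 genes tested had the same median to 2 decimals.

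The 3 members with the smallest p in MT show the scale of these differences. Vom2r15 (ENSRNOG00000070866) ran from 8.68 to 19.9 CPM (median 13.9) in MT_Sed and from 6.51 to 29.2 CPM (median 20.9) in MT_ExT, a log2 difference of 0.40 ± 0.18 (SE, edgeR adjusted p = 0.9997). Vom1r106 (ENSRNOG00000043367) ran from 7.71 to 23.7 CPM (median 14.2) and from 11.4 to 26.4 CPM (median 18.2), a difference of 0.40 ± 0.18 (edgeR adjusted p = 0.9997). Vom1r62 (ENSRNOG00000032819) ran from 15.3 to 37.5 CPM (median 26.1) and from 20.0 to 55.7 CPM (median 31.7), a difference of 0.31 ± 0.14 (edgeR adjusted p = 0.9997). The arms overlapped for all 3.

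The rats carry 2 ranges of numbers, 2 to 16 and 17 to 32, and each arm of MT and SM has 7 rats with low and 8 with high numbers. In rats 2 to 16 the summed level was 2724 CPM in MT_Sed and 3044 in MT_ExT, 1.12 times higher in ExT. In rats 17 to 32 it was 3148 and 3153 CPM, a ratio of 1.00. Over all 30 libraries the ratio was 1.05, and the 5 lowest MT libraries were MT_Sed rats of the range 2 to 16. Fitted within the ranges, 55 of 81 members tested were positive in rats 2 to 16 (median log2 difference 0.16) and 53 of 105 in rats 17 to 32 (median 0.00). No member was called in either range, and the difference between the ranges was not tested.

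The order of members was nearly the same in both arms of MT. Mean levels of all 145 members in MT_Sed and MT_ExT had a Pearson correlation of 0.987 on log2(CPM + 1) and a Spearman correlation of 0.979. Vom1r35, at 0 in both arms, is included. The correlations are across genes that share libraries and that are not independent replicates. Among the 136 members with at least 100 MT counts, the ExT to Sed ratio ran from 0.753 for Vom1r66 (8.66 to 6.52 CPM) to 2.11 for Vom1r84 (3.66 ± 2.40 to 7.71 ± 5.00 CPM, SD, n = 15 each), with a median of 1.05. Vom1r84 had 0 to 8 counts in an MT_Sed library and 1 to 15 in an MT_ExT library, so its ratio rests on few counts and overlapping arms. The order of members was less alike between sample types, with a Spearman correlation of their totals of 0.466 between MT and SM and of 0.176 between MT and LV, where SM and LV totals are mostly 0 to 2 counts.

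**Figure D5:**
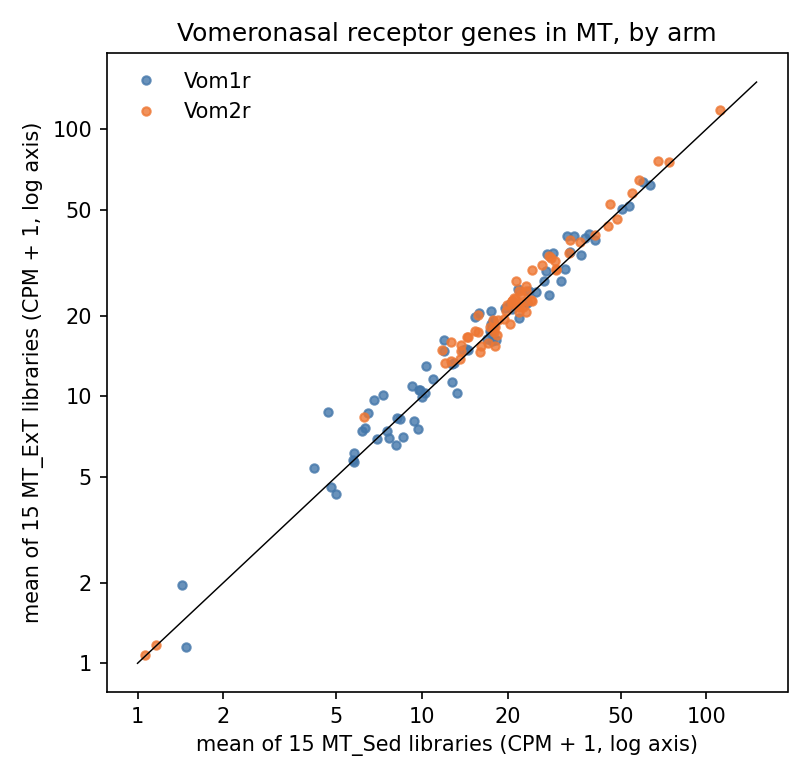
Mean level of each of the 144 members with MT counts in 15 MT_Sed (x axis) and 15 MT_ExT (y axis) libraries, as CPM + 1 on log axes, with the line of equality. Points are genes, coloured by family. The points lie along the line from near 0 to above 100 CPM, and type 1 genes make up most of those below 10.

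In whole muscle no member passed the filter for the training test, in which edgeR called 0.206% of 13570 genes. The summed level overlapped between the arms, at 0.212 to 0.860 CPM in SM_Sed (median 0.433) and 0.148 to 1.10 in SM_ExT (median 0.544). In the ventricle Vom2r44 alone passed. Its level was 0.634 ± 0.272 CPM in LV_Sed and 0.674 ± 0.396 in LV_ExT (SD, n = 7 each), a log2 difference of 0.11 ± 0.40 (SE, edgeR adjusted p = 0.977), where 0% of 14488 genes were called and 855 had an unadjusted p under 0.05. A difference in training was thus not detectable in either tissue at this depth.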

How the data were processed

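Values are whole-number counts per gene that the authors deposited as a table for each sample type. Per the submitters' processing notes, FastQC 0.74, cutadapt 4.6, STAR 2.7.11a and HTSeq were used with the build mRatBN7.2, and counting settings are not given in the sources used here. Libraries were grouped by title, and nuclear-encoded totals ranged as given above.

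Tests used edgeR 4.0.16 in R 4.3.3 (quasi-likelihood F test, TMM, filterByExpr, robust dispersions), with only the libraries compared. Adjustment was Benjamini-Hochberg over all genes tested, with calls at an adjusted p under 0.05. Simulated counts were run first for ExT against Sed in MT and MT against SM in Sed, and not for the other comparisons. Alternatives were RLE factors, library totals, nuclear-encoded genes only, no filter, DESeq2 1.42.0, each range of rat numbers, thinning to the smallest total and the rat as a block. Sums and shares used numpy 2.4.6, pandas 2.3.3 and scipy 1.17.1, with intervals at the 95% level.

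The members and lists were chosen with earlier results of these data known. Named members were the 6 highest by mean CPM in each sample type, the 3 of smallest p in a training test without calls, and the 4 with the largest dispersion index. Naming by coding length was not possible with the tables used here. The same rats gave SM and MT, which pairs these libraries. Deviations from group means had a median correlation of 0.0164 within rats and -0.000417 between rats, over 9709 genes with at least 5 CPM.

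Libraries of a group differed beyond counting error: the smallest chi-square per degree of freedom over genes was 1.17, in MT_ExT, so each counts as a replicate. Replicates are separate rats. No column belonged to another sample. Of the 145 members, 131 carry a symbol found in the RefSeq window table.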

Additional observations from a re-analysis of the deposited data

Results flagged for a closer look

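In the LV groups of 7 libraries, 20 sets of values were examined for a library far from all others of its group. In 3 of them there was one. The limit used sets apart about 1 in 20 sets of normally distributed values. Counts near 0 are not so distributed, so that rate does not apply to them. In LV_Sed, Vom2r38 was at 0.158 CPM in rat 31, which had 6 counts, while rats 20 and 30 had 1 count each and the other 4 libraries none. In LV_Sed, Vom2r4 was at 0.0783 CPM in rat 19, which had 3 counts, beside 1 count in rat 30 and none in the other 5 libraries. In LV_ExT, type 1 receptor genes summed to 0.268 CPM in rat 26, which had 9 counts, against 0 to 2 counts in the other 6 libraries. That library also had the largest sum over all members in LV, at 63 counts. These values rest on 3 to 9 counts each.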

How the results depend on the processing

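No member was called under training in MT, SM or LV in any alternative run. In SM members were tested only without the filter (79 members), so in all other settings 0 was fixed in advance. In LV 1 member was tested, or 26 without the filter and with DESeq2. All genes called under training in SM numbered 133 with DESeq2, 396 in rats 2 to 16 and 1 in rats 17 to 32, against 28, and the cause was not tested. MT against SM changed with depth: after thinning to the smallest total 1 member was called in Sed and 0 in ExT (123 and 117 before) and 6438 and 4288 genes (21648 and 20092 before), because 1 and 0 members then passed the filter. With the rat as a replicate block, 123 and 117 members and 21628 and 20069 genes were called, so this paired fit left the number of members called as it was and changed that of all genes slightly. Scaled to all counts, the members' sum was 1498 CPM in MT (3026 over nuclear-encoded counts) and 0.657 CPM in LV (1.19), since mitochondrial-genome counts enter the total. Without Vom2r44 the sum was 0.532 CPM in LV and 0.359 in SM (1.19 and 0.572 with it). Among the members named in a test and the counts of calls, no direction was reversed under these alternatives. The 2 alternatives on counts per coding length were not run. Depth limits single members in SM and LV, where most members have 2 counts or fewer in all.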
